A study of Homo sapiens with 4 samples.

Results

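The ID proteins are small helix-loop-helix proteins that lack the basic stretch needed to grip DNA. They pair with the E proteins, the widely expressed basic helix-loop-helix factors that otherwise pair with each other or with tissue-restricted partners such as MYOD1 or TWIST1 on the E-box motif, and so hold them off DNA. In neural precursors ID1, ID2 and ID3 are known for delaying differentiation, and ID1 and ID3 are textbook direct targets of bone morphogenetic protein (BMP) signalling through SMAD1 and SMAD5. The 6 genes described here are the inhibitors ID1, ID2 and ID3 and the E-protein genes TCF3 (also called E2A), TCF4 (not the WNT effector TCF7L2, which shares the name in older work) and TCF12 (HEB), out of 25283 genes in the table. They were taken by symbol, and the set was chosen with the levels of these same 4 libraries known, among them the higher ID1 and ID3 levels under U1 overexpression, so the differences between groups are given as a description without a test. All 6 were found, and each had at least 7.96 CPM in every library, so none passed the filter on low values only through the group in which it was high.

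The libraries are RNA-seq of cells labelled as neurons, made from the human embryonic stem cell line H1 through neural induction and a maturation medium. The control group (2 libraries) carried an empty vector on a wild-type background, and the U1_OE group (2 libraries) a lentiviral vector for U1 snRNA, the RNA that recognises 5′ splice sites, with 36 h between vector and harvest. The treatment field gives the U1 vector for the controls too, and the groups here follow titles and genotype. U1 snRNA itself was not analysed here, both groups come from 1 cell line, and separate cultures are not stated for replicates, so any spread below may be technical. The deposited estimated counts summed to 16713505 to 19057423 per library. The markers did not all follow the neuronal label: DCX and STMN2, proteins of young neurons, were at or below 0.318 CPM in every library and listed at 0 in 2 and 1 of them, whereas COL1A1, the main collagen chain of mesenchymal cells, was at 29374 to 41457 CPM. TUBB3, another neuronal marker, was at 159 and 104 CPM in control and 264 and 338 CPM in U1_OE. The 13 measured neuronal markers other than TUBB3 together gave only 26.3 and 17.9 CPM in control and 73.3 and 30.4 CPM in U1_OE. Of 14 measured neuronal markers, 10 passed the filter on low values. In bulk RNA, fewer cells of a type and less RNA per cell cannot be told apart.

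The sequences just before the transcription starts of the 3 ID genes are shown because ID1 and ID3 stood apart between the groups and ID2 did not. They are 250-base windows 5′ to 3′ on each gene's own strand from RefSeq's table on GRCh38.p14, in which all 6 genes matched: chr20:31605039-31605288 on the plus strand for ID1, chr1:23559502-23559751 on the minus strand for ID3 and chr2:8681806-8682055 on the plus strand for ID2. Capitals mark the TATA-like letters TATAA on either strand and the E-box CANNTG, the motif bound by E proteins.
ID1: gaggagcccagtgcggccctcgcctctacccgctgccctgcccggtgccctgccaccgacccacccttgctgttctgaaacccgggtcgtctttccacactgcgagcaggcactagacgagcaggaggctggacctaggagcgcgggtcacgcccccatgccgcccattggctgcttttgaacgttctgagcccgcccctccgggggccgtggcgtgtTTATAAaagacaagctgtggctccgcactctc
ID3: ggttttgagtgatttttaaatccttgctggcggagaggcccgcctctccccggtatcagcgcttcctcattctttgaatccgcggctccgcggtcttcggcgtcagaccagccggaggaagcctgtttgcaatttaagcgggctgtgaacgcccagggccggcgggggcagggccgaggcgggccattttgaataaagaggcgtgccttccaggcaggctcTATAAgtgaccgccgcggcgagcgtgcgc
ID2: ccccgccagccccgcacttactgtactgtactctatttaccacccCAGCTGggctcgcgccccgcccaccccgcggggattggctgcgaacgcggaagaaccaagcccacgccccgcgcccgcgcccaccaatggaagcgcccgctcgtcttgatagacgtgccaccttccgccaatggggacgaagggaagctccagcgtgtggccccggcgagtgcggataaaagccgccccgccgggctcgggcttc
The letters TATAA start at position -31 from the annotated start in ID1, with an overlapping match on the other strand at -32, and at -29 in ID3, and do not occur in the ID2 window. Only exact letters were searched, so near matches, such as GATAAAA close to the end of the ID2 window, are not marked. The only E-box letters in these windows are those of ID2 at -205. Among 34788 distinct windows of this length in the table, 19.0% hold TATAA and 61.8% hold CANNTG on either strand. The palindrome GGCGCC, a GC-rich sequence that BMP SMADs can bind, is in 16.4% of windows and in none of these 3. The letters CCAAT, on either strand, occur in the ID1 and ID2 windows, in ID2 at 3 places, and in 32.0% of all windows. A match or its absence describes only the letters of these windows. The ID2 and ID3 windows lie within the GENCODE v29 spans of these genes, given below, so annotated starts also exist upstream of them. Sequence before those other starts was not searched.

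The genes differ in size as well as in role. In GENCODE v29 on GRCh38, ID1 spans 1.23 kb (chromosome 20, 31605283 to 31606515, plus strand), ID3 1.88 kb (chromosome 1, 23557918 to 23559794, minus strand) and ID2 5.61 kb (chromosome 2, 8678845 to 8684453, plus strand). The E-protein genes are long: TCF3 spans 43.3 kb (chromosome 19, 1609290 to 1652605, minus strand), TCF12 381 kb (chromosome 15, 56918623 to 57299281, plus strand) and TCF4 442 kb (chromosome 18, 55222331 to 55664787, minus strand). TCF4 has 90 annotated transcripts and 10 start windows in the RefSeq table, against 2 transcripts and 1 window for ID1. Gene-level values add up such transcripts, so a switch between TCF4 starts would not be seen here.

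ID1 and ID3 were the members that separated the groups. Levels are TMM-scaled counts per 1000000 (CPM) of values that the deposited table already scales by transcript length. That scaling was checked in genes with 1 annotated transcript. For genes with several, the length used is not known, so levels can be compared between genes only roughly. ID1 stood at 36.3 and 58.4 CPM in control replicates 1 and 2 and at 325 and 171 CPM in U1_OE replicates 1 and 2, the order kept for all pairs of values that follow. ID3 had 19.2 and 31.9 CPM in control and 241 and 114 CPM in U1_OE. In both genes each U1_OE library lay above each control library, and within each group the same library was the higher: control replicate 2 and U1_OE replicate 1. The lowest U1_OE level was 2.93 times the highest control level for ID1 and 3.59 times for ID3. By group, ID1 was at 47.3 ± 15.6 and 248 ± 108 CPM (SD, n = 2) and ID3 at 25.5 ± 8.98 and 178 ± 89.7 CPM, with log2 fold changes of 2.39 ± 0.40 and 2.80 ± 0.46 (SE, edgeR). In level order among tested genes, ID1 moved from the 77.1 and 85.3 percentile in control to the 97.3 and 94.7 percentile in U1_OE, and ID3 from 63.7 and 74.4 to 96.3 and 92.0.

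ID2, the third inhibitor, did not follow them. It had 19.8 and 7.96 CPM in control and 16.3 and 14.4 CPM in U1_OE. Both U1_OE values lay between the control values, and control replicate 1 was 2.49 times control replicate 2, the reverse of the order in ID1 and ID3. The log2 fold change of ID2 was 0.14 ± 0.45, and it ran from -0.37 without control replicate 2 to 0.97 without control replicate 1, so the control libraries set its sign. ID4, the fourth ID gene and not one of the 6, was at 0.0254 to 0.359 CPM and fell under the filter on low values.

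**Figure D1:**
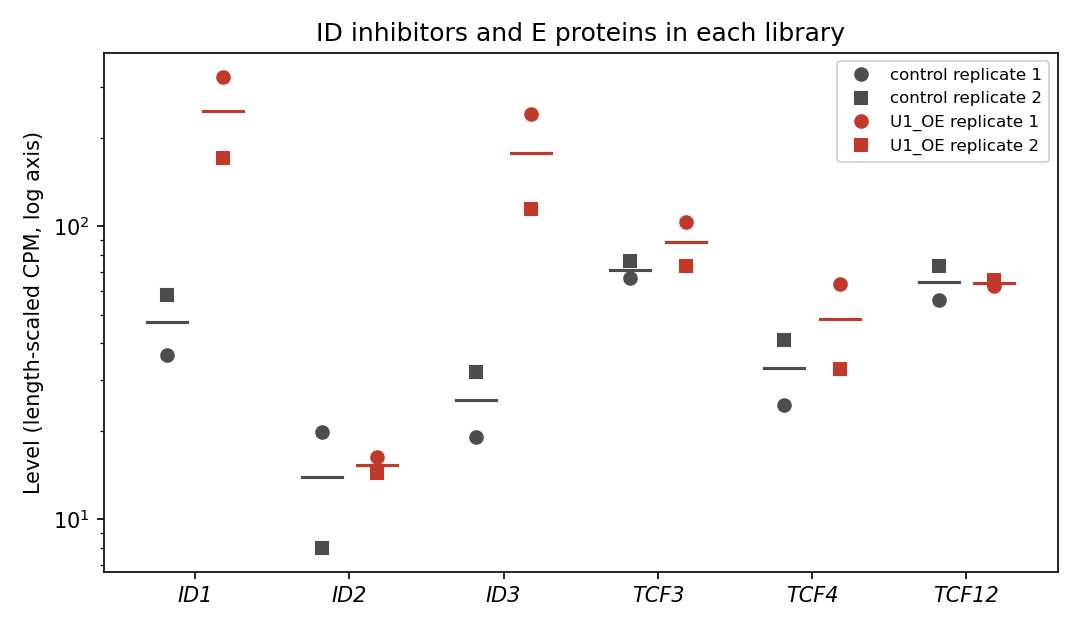
Level of each gene in each library on a log axis, in CPM of length-scaled values; grey is control, red is U1_OE, circles are replicate 1, squares replicate 2 and short lines the group means. ID1 and ID3 show the U1_OE points (325 and 171, 241 and 114) above the control points, while the points of the other 4 genes overlap between groups.

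The E-protein genes overlapped between the groups. TCF3, which gives rise to the E proteins of lymphoid development but is expressed widely, had 66.4 and 76.1 CPM in control and 104 and 73.1 CPM in U1_OE libraries. Here U1_OE replicate 1 alone stood higher, and U1_OE replicate 2 lay between the controls. TCF4, whose loss of function causes Pitt-Hopkins syndrome and which is prominent in developing brain, had 24.5 and 41.0 CPM in control and 63.6 and 32.6 CPM in U1_OE. Its U1_OE replicate 2 again lay between the controls, and TCF3 and TCF4 had the same higher library in each group as ID1 and ID3. TCF12, a partner of TWIST1 in skull suture formation, had 56.1 and 73.3 CPM in control and 62.8 and 65.7 CPM in U1_OE, with both U1_OE libraries inside the control range. The log2 fold changes were 0.31 ± 0.21 for TCF3, 0.55 ± 0.41 for TCF4 and -0.01 ± 0.17 for TCF12 (SE, edgeR). Without U1_OE replicate 1 those of TCF3 and TCF4 were 0.051 and 0.0059, and without U1_OE replicate 2 they were 0.54 and 0.95. TCF4 also moved with the controls, to 0.25 without control replicate 1 and 0.97 without control replicate 2. TCF12 changed sign with the library left out, from -0.17 without control replicate 1 to 0.19 without control replicate 2.

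Of the 6 genes, 2 (ID1 and ID3) had groups apart with U1_OE higher, which holds for 19.7% of all 17317 tested genes, and 0 had U1_OE lower, which holds for 22.1%. The edgeR quasi-likelihood test called 0 of the 6 at an adjusted p of 0.05, as it called 0% of all tested genes. An unadjusted p under 0.05 was reached by 2 of the 6 and by 9.08% of all genes, and DESeq2 called 2 of the 6 higher and 0 lower, against 0.614% higher and 0.47% lower of 17440 genes. limma-voom called 0 genes over the whole table. Because the set was chosen on this contrast, nothing is read from these counts. The median log2 fold change was 0.43 over the 6 genes and -0.01 over all tested genes.

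**Figure D2:**
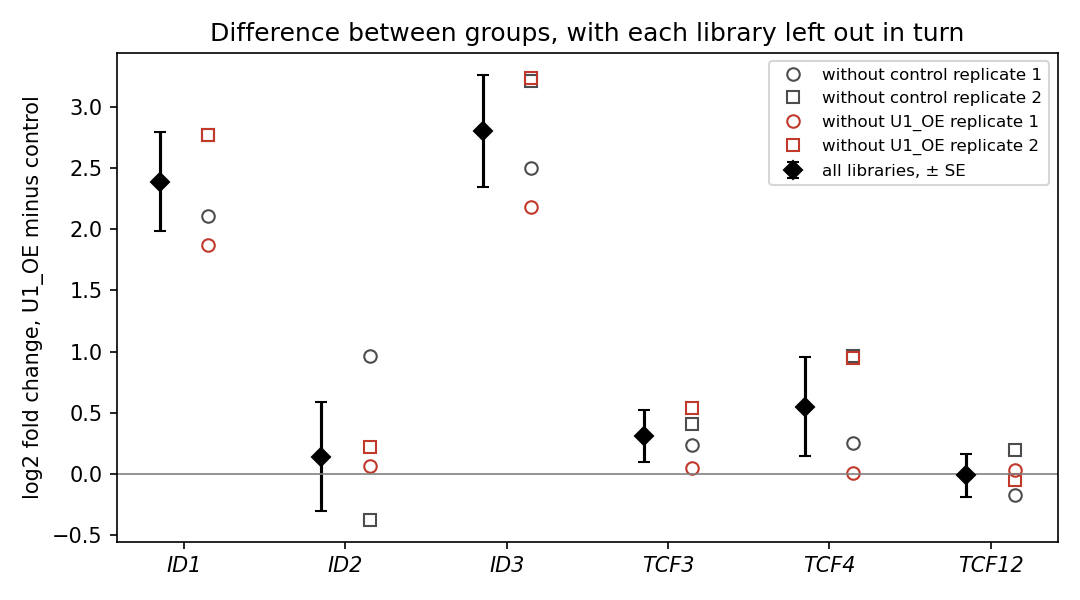
log2 fold change of each gene, U1_OE minus control, from edgeR with all libraries (diamond, bars are SE) and with 1 library left out (open symbols; grey for a control library, red for a U1_OE library). ID1 stays between 1.87 and 2.77 and ID3 between 2.18 and 3.24, whereas ID2 and TCF12 fall on both sides of 0.

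The spread between libraries of a group could be looked at apart from the contrast. In the control group ID1, ID3 and TCF4 were 1.61, 1.66 and 1.67 times higher in replicate 2 than in replicate 1, and in the U1_OE group they were 1.90, 2.11 and 1.95 times higher in replicate 1 than in replicate 2. The median gap over all tested genes, of any level, was 1.17-fold in control and 1.23-fold in U1_OE. It was taken on log2(CPM + 0.5), as were the shares that follow, whereas the folds above are of CPM alone. A larger gap than that of ID1 was seen in 14.6% of genes in control and 13.2% in U1_OE, and than that of ID3 in 13.2% and 10.0%. Among genes not matched for level, these genes were thus among the more variable ones between libraries of 1 group. TCF12 in U1_OE had a gap that 87.4% of genes exceeded. For ID2 the control gap was exceeded by 4.2% of genes and the U1_OE gap by 69.5%. By the length scaling, and taking the longest coding transcript, the values stand for about 143 to 353 reads for ID2, 189 to 2176 for ID3, 351 to 2873 for ID1 and at least 1991 for each E-protein gene.

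The make-up of the ID pool also differed between libraries. ID1 was 1.89 and 1.83 times ID3 in control, and 1.35 and 1.496 times ID3 in U1_OE. The 2 control ratios lay close together and above both U1_OE ratios. ID1 made up 48.2% and 59.4% of the summed ID level in control and 55.8% and 57.1% in U1_OE, and ID3 25.5% and 32.4% against 41.4% and 38.1%. ID2 went from 26.3% and 8.1% of the sum in control to 2.8% and 4.8% in U1_OE. Within the E proteins, TCF3 held 39.9% to 45.2% of the sum in every library, and TCF4 held 16.7% and 21.6% in control and 27.7% and 19.0% in U1_OE.

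Inhibitors and partners can be set against each other within a library, where depth cancels. Summed over the 3 genes, the ID level was 75.3 and 98.2 CPM in control and 582 and 300.1 CPM in U1_OE. The summed E-protein level was 147 and 190.4 CPM in control and 230.01 and 171 CPM in U1_OE, and these overlapped. The ratio of the summed ID to the summed E-protein level was 0.512 and 0.516 in control, and 2.53 and 1.75 in U1_OE. The control libraries differed 1.61-fold in ID1 and 1.67-fold in TCF4 and had nearly the same ratio. ID2, which is part of the ID sum, ran the other way, at 19.8 and 7.96 CPM in control. It thus offset part of the ID1 and ID3 difference, and the near-equal ratios depend on its inclusion. On these values the E-protein sum was the larger in both control libraries and the ID sum in both U1_OE libraries. Which sum is larger depends on the length used for genes with several transcripts. That length is not known, so which transcripts are more numerous was not settled. The mean log2 ratio was -0.96 ± 0.01 in control and 1.07 ± 0.38 in U1_OE (SD, n = 2), a difference of 2.03 that ran from 1.77 to 2.30 with 1 library left out. These are RNA levels, and ID and E proteins were not measured.

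**Figure D3:**
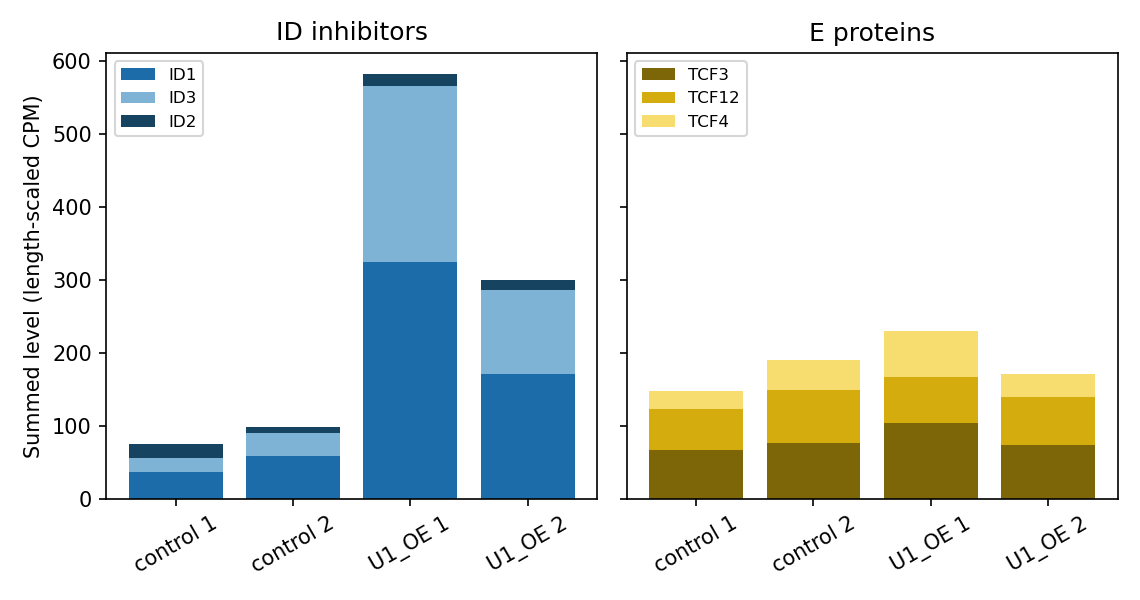
Summed level of the ID genes (left) and the E-protein genes (right) in each library, in CPM of length-scaled values, with the genes stacked. The ID bars are 75.3, 98.2, 582 and 300.1 CPM high, with most of the height from ID1 and ID3, and the E-protein bars run from 147 to 230.01 CPM.

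The neighbouring transcripts found that could share reads had low levels. The labels name no step that marks the strand, so whether reads of a gene and its antisense partner were told apart where they overlap is not known. ID2-AS1, the antisense gene that overlaps the upstream end of the annotated span of ID2 (chromosome 2, 8666636 to 8681863), had 0.682 to 1.33 CPM in the 4 libraries, and TCF12-DT, named as the divergent transcript of TCF12, 5.04 to 5.47 CPM. Both were low beside ID2 and TCF12. No other gene annotated as overlapping the 6 was matched to a row. Matching was by GENCODE v29 names and identifiers, which 76.8% of rows had. Overlapping genes listed under other names would have been missed.

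The BMP pathway upstream of the ID genes, their bHLH partners and the factors that act on them were read from 11 lists of 114 genes, of which 81 were in the table and 64 were tested. Of these 64, 32 had a positive and 32 a negative log2 fold change, with a median of -0.00, near that of all genes. edgeR called 0 of the 64, and 5 higher and 4 lower had an unadjusted p under 0.05 (14.1%, against 9.08% of all genes). The 5 include BMPER and the 4 include HAND2, which passed the filter on low values only through the group where each was higher. The share is thus a description only. DESeq2 called 1, ENG, as higher and 0 as lower, and limma-voom called 0. The widest difference among the named receptors, ligands and SMADs was that of ENG, described below with its group.

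Among BMP-type ligands, 0 of 6 tested genes were called by edgeR, DESeq2 or limma-voom and none had an unadjusted edgeR p under 0.05. BMP4, a ligand that drives ID expression in many precursors, had 27.9 and 24.7 CPM in control and 47.5 and 29.4 CPM in U1_OE, with a log2 fold change of 0.55 ± 0.26 that was 0.17 without U1_OE replicate 1 and 0.85 without U1_OE replicate 2. GDF6 and GDF5, ligands of joints and skeleton, overlapped between groups, at 45.6 and 24.2 against 19.8 and 38.4 CPM for GDF6 and 39.1 and 14.97 against 29.4 and 29.9 CPM for GDF5. GDF5, like ID2, was highest in control replicate 1 and lowest in control replicate 2.

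Among the 10 receptors and co-receptors tested, ENG was the exception. ENG encodes endoglin, a co-receptor of BMP9-type and TGF-beta ligands on endothelial and mesenchymal cells, and had 353 and 291 CPM in control and 734 and 569 CPM in U1_OE libraries. Both U1_OE values lay above both controls, with a log2 fold change of 1.02 ± 0.19 (SE; edgeR adjusted p = 0.459) and, by DESeq2, 1.03 ± 0.20 (DESeq2 adjusted p = 0.000206). The DESeq2 call was lost without control replicate 2 (0.89, DESeq2 adjusted p = 0.354) and held without each other library and with the replicate block. The type I receptor ACVR1 was at 50.9 and 55.5 against 47.2 and 40.3 CPM, and the co-receptor RGMB at 60.1 and 46.1 against 68.9 and 66.9 CPM. ACVR2A, a type II receptor named here after its values were seen, had 16.5 and 19.2 against 11.02 and 10.5 CPM and a log2 fold change of -0.73 ± 0.18 with an unadjusted edgeR p of 0.00977, which did not pass adjustment.

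Extracellular antagonists, which bind the ligands, had 5 positive and 4 negative of 9 tested and 0 calls by edgeR, DESeq2 or limma-voom. GREM1, gremlin, was the most abundant at 1048 and 528 CPM in control and 651 and 981 CPM in U1_OE, with U1_OE inside the control range. TWSG1, a modulator that can act either way, had 94.9 and 109.8 against 74.3 and 67.7 CPM, and CHRDL1, a chordin-like antagonist, 57.3 and 69.3 against 82.3 and 117 CPM, each with groups apart. Their log2 fold changes were -0.53 ± 0.14 and 0.65 ± 0.22. BMPER, also named after its values were seen, had 1.61 and 0.206 against 15.7 and 2.55 CPM. It would not have passed the filter on low values without U1_OE, where it was higher.

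Of the SMADs that carry the BMP signal, SMAD1 was lower in both U1_OE libraries, at 44.3 and 45.1 CPM in control and 29.2 and 31.02 CPM in U1_OE. Its log2 fold change of -0.57 ± 0.13 had an unadjusted edgeR p of 0.00698 and an adjusted p of 0.459. SMAD5, which shares its role, was at 16.8 and 27.1 against 23.4 and 23.4 CPM, and the common partner SMAD4 at 42.9 and 43.8 against 35.4 and 50.4 CPM. Transcript levels of SMADs say nothing of their phosphorylation, which was not measured.

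Other known BMP targets had more positive than negative values. Of 10 tested, 8 had a positive log2 fold change, the median was 0.95 (-0.01 over all genes), and 7 had both U1_OE libraries above both controls (19.7% of all genes) while 1 had both below (22.1%). None was called by edgeR, DESeq2 or limma-voom, and 2 had an unadjusted edgeR p under 0.05. The 11 measured targets were low, with sums of 55.9 and 57.0 CPM in control and 77.9 and 69.6 CPM in U1_OE. The 3 most abundant, SMAD7, RUNX2 and BAMBI, had log2 fold changes of 0.78, -0.66 and 0.53. All lay below the median, which therefore rests on less abundant genes. SMAD7, an inhibitory SMAD that BMP and TGF-beta signals induce, had 15.3 and 12.4 CPM in control and 25.4 and 22.2 CPM in U1_OE (0.78 ± 0.19). BAMBI, a decoy receptor, had 9.11 and 5.60 against 12.4 and 8.85 CPM, and RUNX2, the osteoblast factor, 12.9 and 23.6 against 10.8 and 12.3 CPM. HES1, itself a bHLH repressor better known as a Notch target and named after its values were seen, had 2.29 and 2.88 against 7.21 and 9.29 CPM.

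The tissue-restricted partners that compete with ID proteins for E proteins were mostly low. Of 18 neural partners 3 were in the table and 0 passed the filter on low values. Among 7 tested partners of mesoderm and other tissues, TWIST1, a mesenchymal factor, was the most abundant at 30.2 and 31.5 CPM in control and 49.6 and 33.8 CPM in U1_OE. MSC, musculin, was at 20.7 and 21.8 against 14.3 and 23.2 CPM and SCX, scleraxis of tendon, at 5.32 and 7.73 against 9.97 and 4.44 CPM. HAND2, a heart and limb factor named after its values were seen, had 3.11 and 1.33 against 0.301 and 0.476 CPM. HAND2 passed the filter on low values only through control, where it was higher. edgeR, DESeq2 and limma-voom called 0 of these 7, and TWIST1 had a log2 fold change of 0.43 ± 0.22, which was 0.14 without U1_OE replicate 1 and 0.68 without U1_OE replicate 2.

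Factors that act on the proteins themselves, and the cell cycle inhibitors they control, came from lists of 7, 6 and 5 tested genes. Among E-protein coregulators, LDB1 was at 109.7 and 139 against 148 and 97.4 CPM, the acetyltransferase EP300 at 22.6 and 28.4 against 23.8 and 25.3 CPM and CREBBP at 17.2 and 27.2 against 26.6 and 18.7 CPM, all with overlapping groups. Of the genes that govern ID protein stability, CDC27 and FZR1, parts of the ubiquitin ligase that marks ID proteins for breakdown, had log2 fold changes of -0.20 ± 0.15 and 0.10 ± 0.13, and COPS5, a signalosome subunit, 0.07 ± 0.12. CDKN1A, which encodes the cell cycle inhibitor p21 and is induced by E proteins, had 1036 and 766 CPM in control and 1360 and 1064 CPM in U1_OE (0.43 ± 0.22). CDKN2A and CDKN2B, other cell cycle inhibitors, overlapped between groups, at 330 and 268 against 217 and 316 CPM and at 47.7 and 23.9 against 29.3 and 62.4 CPM. None of the tested genes in these 3 lists was called by edgeR, DESeq2 or limma-voom, and 0 had an unadjusted edgeR p under 0.05.

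Genes with the profile most like ID1 over the 4 libraries were sought among 8456 genes with a symbol and a mean of at least 10 CPM, by the root mean square distance between log2(CPM + 1) profiles centred on their own mean. ID3 itself lay at 0.19 from ID1, nearer than any of these. The nearest others were MT1X (0.35), LTBP1 (0.38), MMP28 (0.38), MT1E (0.39) and PROCR (0.47), and for ID3 they were MT1X (0.47), LTBP1 (0.55), MMP28 (0.56), MT1E (0.57) and PRSS35 (0.61). LTBP1, the protein that tethers latent TGF-beta to the matrix, had 38.3 and 40.5 CPM in control and 174 and 99.4 CPM in U1_OE, and the metallothionein gene MT1X 9.77 and 24.0 against 97.6 and 35.9 CPM. MT1X and MT1E belong to a family of near-identical genes between which reads can be divided. MMP28 had 2.98 and 6.73 CPM in control and 20.1 and 13.3 CPM in U1_OE, and MT1E 5.80 and 12.9 against 38.1 and 21.3 CPM. The mean of 10 CPM was taken over all 4 libraries, so MMP28 and MT1E reached it only through U1_OE. Their place among the nearest genes is thus partly set by that filter. All profiles are read from the same 4 libraries, and such likeness is a description only.

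Markers of other cell types were read beside these values. The summed level of 9 measured endothelial markers was 35.0 and 40.9 CPM in control and 67.2 and 97.1 CPM in U1_OE, and that of 14 measured neuronal markers 186 and 122 against 337 and 368 CPM, so both sums lay apart between the groups, as ID1 and ID3 did, but were higher in U1_OE replicate 2 than in replicate 1, unlike ID1 and ID3. Of the endothelial sum PECAM1 gave 22.9 and 29.3 against 34.4 and 64.2 CPM, while CDH5, a defining endothelial cadherin, was at 0.0658 to 0.388 CPM. Of the neuronal sum TUBB3 gave 159 and 104 against 264 and 338 CPM, and without TUBB3 it was 26.3 and 17.9 against 73.3 and 30.4 CPM, with U1_OE replicate 1 the higher. The endothelial sum without PECAM1 was 12.05 and 11.6 against 32.8 and 32.95 CPM. The 9 measured progenitor markers other than ID genes summed to 4407 to 4695 CPM in control and 5231 to 6770 CPM in U1_OE, likewise apart. VIM, vimentin, which mesenchymal cells also hold in plenty, gave 4639 and 4352 against 5164 and 6690 CPM of it, and without VIM the sum was 56.1 and 55.0 against 66.9 and 79.98 CPM. NES, nestin, was at 24.3 and 30.0 against 39.3 and 44.5 CPM. SOX2 and PAX6, defining factors of neural progenitors, were lower in both U1_OE libraries, at 1.14 and 1.23 against 0.0965 and 0.820 CPM and at 19.7 and 13.5 against 5.58 and 12.3 CPM. The 22 mesenchymal markers summed to 99363 and 113052 CPM in control and to 117420 and 107979 CPM in U1_OE, the 9 measured astrocyte markers to 1285 and 1507 against 1217 and 1307 CPM and the 5 measured pluripotency markers to 18.2 and 11.6 against 15.2 and 15.03 CPM, all 3 overlapping between groups. GJA1, which encodes the gap junction protein connexin, gave most of the astrocyte sum, at 1178 and 1384 against 973 and 980 CPM, with both U1_OE libraries lower, a difference that passed the edgeR test only without adjustment. Without GJA1 the astrocyte sum was 107 and 123 against 244 and 327 CPM, and the groups lay apart. The pluripotency sum without DPPA4, its most abundant gene, was 2.99 and 3.24 against 4.598 and 4.13 CPM, and the mesenchymal sum overlapped without COL1A1 too. Gene by gene, 17 of 22 tested mesenchymal markers had a positive log2 fold change and 11 had both U1_OE libraries above both controls, against 7 and 2 of 10 neuronal, 4 and 3 of 6 progenitor, 5 and 5 of 6 astrocyte, 4 and 4 of 5 endothelial and 2 and 1 of 3 pluripotency markers, where 19.7% of all genes had both U1_OE libraries above. Both U1_OE libraries lay below both controls for 1 mesenchymal, 1 neuronal, 2 progenitor, 1 astrocyte, 1 endothelial and 0 pluripotency markers, as for 22.1% of all genes. edgeR called none of them. DESeq2, which called 0.614% of all genes higher and 0.47% lower, called COL6A1, POSTN and LOX of the mesenchymal, TUBB3 and GAP43 of the neuronal, FLT1 of the endothelial, CD44 and SOX9 of the astrocyte list, which shares SOX9 with the progenitor list, all as higher. Of the measured markers, FABP7 was listed at 0 in both U1_OE libraries, DCX and AQP4 in 1 library of each group, and STMN2, S100B, TIE1 and SALL4 in 1 control library each. The part of these cell types in the ID1 and ID3 levels was not tested.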

How the data were processed

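RNA-seq gave gene levels in 2 control and 2 U1_OE libraries. Per the submitters' processing notes, Trim Galore, STAR, featureCounts, DESeq2 and the build hg38 were used, without roles. The deposited values are estimated counts for 25283 genes. They are not whole numbers, and they are already scaled by length: in 3706 genes with 1 annotated transcript, 61.8% to 65.0% of low values per library lay within 0.1 of a whole multiple of a constant divided by transcript length less 270 to 290 bases, where 20.0% would by the width of that tolerance. The design had planned a division by length for the ratio of ID to E-protein levels, which was therefore left out. Which step scaled the values, the sources used here do not say.

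After rounding to whole numbers, edgeR 4.0.16 was run under R 4.3.3 (filterByExpr, 17317 genes kept; TMM; quasi-likelihood test of U1_OE against control; Benjamini-Hochberg, 0.05). Since a length-scaled value is not a read count, short genes are noisier than the model takes them to be and limma-trend on log2(CPM + 0.5) was added. Standard errors of edgeR were worked back from the F statistic. Alternatives were RLE and library size scaling, no filter on low counts, a filter at 50 counts on average, limma-voom (limma 3.58.1), DESeq2 1.42.0, a replicate block and each library left out. The fits were tested on simulated counts with 2-fold and 4-fold changes put in. edgeR recovered 4% of the 2-fold and 42% of the 4-fold changes, with 11 false calls. For limma-voom these were 6%, 41% and 10, and for DESeq2 25%, 58% and 38. A gene not called by edgeR or limma-voom may therefore still differ, and some DESeq2 calls may be false. The 6 genes and the gene lists were chosen with earlier results of these data known. Named in the text are the 6 genes, the 3 most abundant tested genes per pathway list, any listed gene called by edgeR or DESeq2, the 5 nearest profiles of ID1 and ID3, and overlapping genes; of the rows, 76.8% matched GENCODE v29. Pathway genes with an unadjusted p under 0.05, and some of the markers, were named after their values were seen.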

Additional observations from a re-analysis of the deposited data

How the results depend on the processing

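No log2 fold change of ID1, ID3, TCF3 or TCF4, nor the ratio of ID to E-protein levels, changed sign under the 12 alternatives for the genes or the 6 for the ratio. With a library left out in turn, ID1 ran from 1.87 to 2.77, ID3 from 2.18 to 3.24, TCF3 from 0.051 to 0.54, TCF4 from 0.0059 to 0.97, ID2 from -0.37 to 0.97, TCF12 from -0.17 to 0.19 and the difference in log2 ratio from 1.77 to 2.30. Under the other settings ID1 stayed within 2.34 to 2.40 and ID3 within 2.72 to 2.81, and TCF12 lay between -0.05 and 0.0043. Dividing again by length gave a ratio difference of 2.12 (longest transcript) or 2.11 (union of exons). edgeR with each setting, limma-voom and limma-trend called 0 genes, against 107 higher and 82 lower by DESeq2, which called 1 listed pathway gene higher. The cause was not tested. Without each library in turn DESeq2 called 35 to 157 higher and 13 to 165 lower (42 and 13 without control replicate 1, 35 and 27 without control replicate 2, 165 lower without U1_OE replicate 2), and ID1 and ID3 in each of these fits. ENG by DESeq2 ran from 0.85 to 1.19. Equal replicate numbers are only a shared number in the labels: replicate differences of control and U1_OE correlated at -0.08 across 17317 genes. With the replicate block edgeR called 0 genes and DESeq2 44 higher and 36 lower. ID1 and ID3 had log2 fold changes of 2.35 and 2.74 by edgeR with that block. They were chosen on this contrast, so no call of them is read as a result. Uncalled genes near 0 changed sign with a library left out: GDF6 (-0.82 to 0.28), GDF5 (-0.40 to 1.01), GREM1 (-0.36 to 0.65), SMAD4 (-0.30 to 0.23), SMAD5 (-0.19 to 0.48), MSC (-0.57 to 0.14), SCX (-0.54 to 0.61), LDB1 (-0.34 to 0.24), EP300 (-0.19 to 0.12), CREBBP (-0.24 to 0.39, and -0.019 with library size alone), CDKN2A (-0.47 to 0.092, with 0.092 the value without U1_OE replicate 1) and CDKN2B (-0.30 to 0.96). Among uncalled genes that kept their sign, a library left out moved the log2 fold change by over 1.5 times for BMP4 (0.17 to 0.85), RGMB (0.17 to 0.58), ACVR1 (-0.39 to -0.18), CHRDL1 (0.37 to 0.90), BMPER (1.51 to 5.34), RUNX2 (-1.01 to -0.16), BAMBI (0.22 to 0.95), TWIST1 (0.14 to 0.68), CDC27 (-0.34 to -0.063), COPS5 (0.025 to 0.12) and CDKN1A (0.23 to 0.68). With 2 libraries a group and 1 cell line, the number of libraries limits the precision of these values.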

Other observations

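Each of the 4 members outside the ID1 and ID3 pair also had close neighbours in profile by the same distance, a search extended to them after the ID1 and ID3 values were seen. TCF4 lay at 0.02 from AUTS2, a gene of neurodevelopment with 16.9 and 28.1 CPM in control and 43.1 and 22.7 CPM in U1_OE, followed by TRPS1 (0.06) and GPC6 (0.07). ID2 lay at 0.07 from WNT5A, which encodes a WNT ligand, at 57.0 and 26.3 against 54.1 and 45.4 CPM, and at 0.07 from GDF15, a stress-induced ligand of the TGF-beta family, at 191 and 92.0 against 163 and 158 CPM. WNT5A and GDF15, like ID2, were lowest in control replicate 2, and AUTS2, like TCF4, in control replicate 1. TCF3 lay at 0.27 from TCF4, against 1.05 and 0.91 for the distances of TCF3 and TCF4 from ID1. No test was made of these profiles over 4 libraries.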
